A study of Mus musculus with 15 samples.

Results

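Acyl-CoA synthetases and acyl-CoA thioesterases were followed in the cecum of antibiotic-induced microbiome-depleted (AIMD) and vehicle-treated mice. They were taken by name, as every gene whose symbol starts with Acot, Acsl, Acsm, Acss, Acsf or Acsbg directly followed by a digit. This gave 31 of the 45808 rows of the table, made up of 13 thioesterases, 17 synthetases and Acss2os, an RNA antisense to Acss2. Of these, 25 were above 0 in at least 1 mouse, against 24279 rows of the whole table, and 18 were expressed at a level that could be tested. All mice were wild-type C57BL/6 males with a labelled age of 20 weeks. The 7 AIMD mice received ampicillin, vancomycin, neomycin, metronidazole and amphotericin B by repeated daily oral gavage for 30 days, and the 8 vehicle-treated mice received water in the same way. Ceca were emptied and flash-frozen, with no separation of mucosa, muscle and nerves described. RNA expression was given as FPKM, the count of a gene's reads divided by its length and by a factor for each library.

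A fatty acid enters metabolism only after it has been joined to coenzyme A. Synthetases make this acyl-CoA at the cost of ATP and are grouped by the chain they prefer. Acss enzymes take acetate and propionate, Acsm butyrate and medium chains, Acsl long chains, and Acsbg long and very long chains. Acsf2 and Acsf3 stand outside these groups. Thioesterases undo the step and release free fatty acid and coenzyme A. Each enzyme works in 1 or a few compartments (cytosol, mitochondrion, peroxisome or the membranes that face the cytosol), and a cecal cell normally receives acetate, propionate and butyrate from the bacteria in the lumen.

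The type I thioesterases Acot1 to Acot6 are neighbours on the plus strand of chromosome 12 (GRCm38), from the start of Acot2 at 83987861 to the end of Acot6 at 84111349. Acot1, the cytosolic member, and Acot2, its mitochondrial relative, are near-identical in their coding sequence (GENCODE M21). Over 1239 aligned bases, 95.2% were the same, and the longest stretch without a difference had 273 bases. The most different 60 bases of the aligned part are shown because reads over such stretches tell the genes apart. Both lie in 1 exon, and capitals mark the 13 bases that differ.
Acot1 chr12:84016942-84017001: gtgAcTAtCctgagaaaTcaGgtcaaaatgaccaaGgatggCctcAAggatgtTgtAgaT
Acot2 chr12:83992664-83992723: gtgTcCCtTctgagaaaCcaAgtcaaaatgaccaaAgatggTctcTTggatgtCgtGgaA
A few bases further on, from base 887 of the Acot1 and base 1010 of the Acot2 coding sequence, the next 60 bases were the same in both, so that a 50-base read from there cannot be assigned to either gene.
Acot1 chr12:84017006-84017065 and Acot2 chr12:83992728-83992787: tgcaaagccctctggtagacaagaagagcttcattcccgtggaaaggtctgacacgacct
The first 123 coding bases of Acot2 have no counterpart in Acot1, and the start of the Acot2 protein is known as the signal that takes it into mitochondria.
Acot2 chr12:83987902-83988024: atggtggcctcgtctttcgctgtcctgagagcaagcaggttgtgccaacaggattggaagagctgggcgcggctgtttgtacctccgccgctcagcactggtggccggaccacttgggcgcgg
Of all 50-base windows in the Acot1 coding sequence, 43.5% also occurred in Acot2. The values of this pair therefore hold an uncertainty that the spread between mice does not show.

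The recovered depth was 8679671 to 18108572 reads per AIMD mouse and 4372406 to 14405933 per vehicle-treated mouse, lowest in vehicle replicate 8. The libraries carried epithelial markers, with the summed FPKM of Epcam, Vil1, Cdh17, Krt8, Krt20 and Lgals4 between 5787 and 9223 after antibiotics and between 4915 and 6905 after water, and 3 of the 6 were higher in AIMD mice. Markers of enteric neurons were lower in AIMD mice for 4 of 4 tested genes (summed FPKM 3.15 to 5.52 against 5.99 to 87.2), and markers of glia for 3 of 3 (0.469 to 1.24 against 0.864 to 11.9). Of 5 smooth muscle markers 1 was lower (summed FPKM 156 to 588 against 400 to 2201). Adipocyte markers summed to 11.3 to 18.3 against 10.9 to 36.0 FPKM. Of the 2 tested, Adipoq was lower (0 to 1.63 against 0.156 to 5.205 FPKM), and Cidec, with means of 14.5 and 15.3, was not called. Fibroblast markers summed to 29.0 to 71.0 against 35.2 to 124 FPKM, with 1 of 4 lower (Dpt), immune markers to 4.41 to 14.9 against 8.54 to 20.4, and goblet cell markers to 171 to 319 against 166 to 378, with 1 of 4 lower (Muc2). Vehicle replicate 8 had the highest sum of the neuron, glia, smooth muscle, adipocyte, fibroblast and immune lists. Of the 4 hepatocyte markers, which summed to 44.4 to 66.4 against 22.4 to 44.8 FPKM, Apob was higher in AIMD mice, Ttr had 24.1 and 23.6 FPKM, and Alb, the defining one, was near 0 at 0.0876 and 0.0814. The part of other cells in the results on the enzymes was not tested. In whole tissue, fewer cells of a type and less RNA per cell cannot be told apart. The mice are separate animals, and p-values set the group difference against the spread between them. The paper describes several mice per cage, and the labels name no cage, so cage could not be taken into account.

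The acyl-CoA enzymes that passed the test were all lower after antibiotics. Of the 18 members tested, 6 were lower in AIMD mice (limma, Benjamini-Hochberg adjusted p under 0.05 over 11983 genes), which is 33.3%, where 16.7% of all tested genes were lower and 36.1% were called in either direction. These were the thioesterases Acot1, Acot2, Acot6 and Acot8 and the acetate-activating synthetases Acss1 and Acss2. Acot6 passed the filter on low values through vehicle-treated mice alone, and the other 5 passed it in both groups. In limma 0 members were higher, where 19.4% of all tested genes were, although 2 members were higher and 7 lower at an unadjusted p under 0.05, and limma voom on recovered reads called 1, Acsl1, higher. The median log2 fold change was -0.10 over the 18 members and 0.01 over all tested genes. Without vehicle replicate 8, Acot7 joined the lower genes (adjusted p = 0.0216) and Acot11 was higher (adjusted p = 0.0222). Fold changes are on the scale log2(FPKM + 0.5), which understates the change of low genes.

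**Figure D1:**
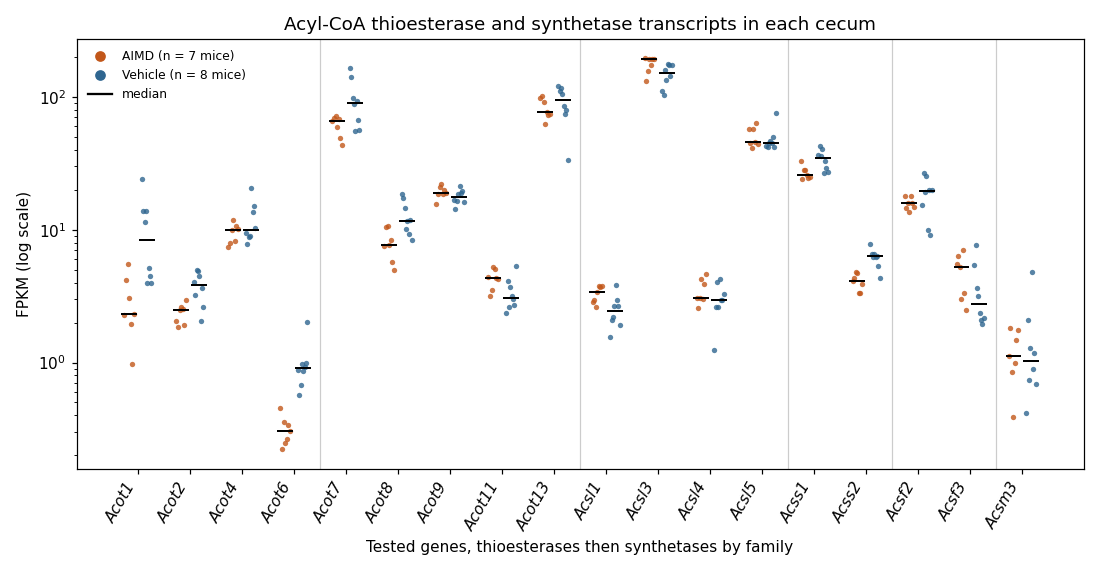
FPKM (log scale) of the 18 tested genes in each of 7 AIMD mice and 8 vehicle-treated mice, with 1 point per mouse and a bar at each group's median. Acot6 is the gene whose groups do not overlap, and vehicle-treated mice spread from 3.96 to 24.1 for Acot1. Acsl3 has the highest median and maximum in both groups, although Acot7 and Acot13 are above it in vehicle replicates 1 and 2.

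Type I thioesterases split acyl-CoA of various chains, and Acot1, Acot2 and Acot6 of the 4 tested were lower, where 16.7% of all tested genes were. Acot6 passed the filter through vehicle-treated mice alone, and part of the reads of Acot1 and Acot2 cannot be told apart. Acot1 (chromosome 12, 84009490 to 84018371) releases long-chain fatty acids in the cytosol and is known as a target of the fatty acid receptor PPARα. Its FPKM in AIMD mice had a lowest value of 0.976, a median of 2.34 and a highest value of 5.47, and in vehicle-treated mice 3.96, 8.31 and 24.1. Of the AIMD mice 5 were below every vehicle-treated mouse, and 4 vehicle-treated mice were above every AIMD mouse. The mean was 2.90 ± 1.5 (SD, n = 7) against 10.1 ± 7.13 (SD, n = 8), 3.48 times as high in vehicle-treated mice. On the log2 scale this was a fold change of -1.48 ± 0.38 (SE), with an adjusted p of 0.00605 in limma, and a two-sided exact permutation test gave p = 0.00528. Acot1 also had the widest spread among vehicle-treated mice of the 6 genes called, with a coefficient of variation of 70.7%. The count behind each value was 20 to 290 reads.

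Acot2 (chromosome 12, 83987861 to 83993873), which acts on the same long chains inside mitochondria, was lower with a smaller fold change. It ranged from 1.86 to 2.96 FPKM around a median of 2.49 in AIMD mice and from 2.06 to 4.98 around 3.82 in vehicle-treated mice. The groups overlapped, since vehicle replicates 6 and 8 lay within the AIMD range. Its log2 fold change was -0.54 ± 0.16 (SE), with an adjusted p of 0.0155 in limma. Acot6 (chromosome 12, 84100654 to 84111349) encodes a peroxisomal enzyme for branched-chain acyl-CoA and was scarce. AIMD mice had 0.221 to 0.456 FPKM with a median of 0.307, and vehicle-treated mice 0.57 to 2.02 with a median of 0.902. It was the single member with groups that did not overlap, as was the case for 8.56% of all tested genes. Acot6 fell by 0.83 ± 0.15 (SE) on the log2 scale (adjusted p = 0.000618 in limma), with 7 to 37 reads behind each value. Since no AIMD mouse and every vehicle-treated mouse reached the 0.5 FPKM that the filter asked for, Acot6 could be tested only because it was high in 1 group, and its adjusted p without a filter was 0.00162. On this low gene the size depended on the scale, from -0.57 with a pseudocount of 1 to -1.34 with 0.1 and -1.49 in limma voom.

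The highest Acot6 value, 2.02 in vehicle replicate 8, stood beside the highest sums of neuron, glia and smooth muscle markers. Without that mouse the log2 fold change of Acot6 was -0.71 (limma adjusted p = 0.00015), and the neuron markers of the other vehicle-treated mice still reached 26.3 FPKM. The part of these cells in the Acot6 result was not tested. Acot4, a peroxisomal enzyme for succinyl-CoA and other dicarboxylic chains, had the highest mean of the type I genes in both groups, although Acot1 was above it in vehicle replicates 1 to 4. It had 9.45 ± 1.66 FPKM (SD, n = 7) after antibiotics and 11.8 ± 4.29 (SD, n = 8) after water and did not pass the threshold (log2 fold change -0.26, 95% interval -0.64 to 0.13). The summed FPKM of all 6 type I genes was 12.2 to 18.3 after antibiotics and 19.1 to 38.4 after water, given as a description with no test.

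Type II thioesterases share the reaction but not the ancestry of type I, and 1 of the 5 tested passed the threshold. Of all tested genes, 16.7% were lower and 36.1% were called in either direction, so this count is near the share of lower genes. Acot8 (chromosome 2, minus strand, 164792765 to 164804882), a peroxisomal thioesterase with a broad range of substrates that includes bile acid CoA esters, was lower in AIMD mice. Its FPKM was 4.96 at the lowest, 7.65 at the median and 10.7 at the highest in AIMD mice, and 8.37, 11.7 and 18.6 in vehicle-treated mice. Here 5 AIMD mice were below every vehicle-treated mouse and 5 vehicle-treated mice above every AIMD mouse. Acot8 had a log2 fold change of -0.65 ± 0.19 (SE) and an adjusted p of 0.0142 in limma.

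Acot7, the cytosolic long-chain thioesterase that is abundant in neurons, was among the highest members and fell just short of a call. AIMD mice had 43.5 to 71.8 FPKM with a median of 65.3, and vehicle-treated mice 55.5 to 165 with a median of 90.2. The mice with 165 and 141 FPKM were vehicle replicates 1 and 2. Its log2 fold change of -0.57 ± 0.22 (SE) had an adjusted p of 0.0531 in limma. Acot7 was called lower with quantile normalization (adjusted p = 0.0419), in limma voom (0.0337) and with an axis of core clock genes as a covariate in limma (0.00796), and not when all genes above 0 were tested (0.0987). Leaving out 1 mouse took the adjusted p under the threshold for vehicle replicate 5 (0.0241), replicate 7 (0.0447) and replicate 8 (0.0216). Replicate 8 had the highest neuron marker sum, 87.2 FPKM, and 56.1 FPKM of Acot7. The part of neurons in the Acot7 values was not tested.

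Acot9, a mitochondrial thioesterase for short and long chains, had the least relative spread of the tested members in AIMD mice (coefficient of variation 10.5%), with 19.2 ± 2.01 FPKM (SD, n = 7) against 17.7 ± 2.19 (SD, n = 8). Its log2 fold change of 0.12 had a 95% interval from -0.10 to 0.34. Acot11, a long-chain thioesterase known from brown fat, had 4.27 ± 0.747 FPKM (SD, n = 7) against 3.37 ± 0.981 (SD, n = 8), and its log2 fold change of 0.32 did not pass the threshold (adjusted p = 0.107 in limma). Acot13, a small thioesterase at mitochondria, was also abundant, with a median of 76.7 FPKM after antibiotics and 95.4 after water. Vehicle replicate 8 had the lowest Acot13 value of all mice, 33.6. Acot13 had a log2 fold change of -0.07 and a 95% interval from -0.54 to 0.40.

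Both tested synthetases for acetate were lower in AIMD mice, where 16.7% of all tested genes were, and the call of Acss1 was close to the threshold. Acss2 (chromosome 2, 155517948 to 155585724) makes acetyl-CoA in the cytosol and nucleus. Its FPKM in AIMD mice was 3.34 at the lowest, 4.08 at the median and 4.83 at the highest, and in vehicle-treated mice 4.34, 6.33 and 7.84. All vehicle-treated mice except replicate 8, at 4.34, were above every AIMD mouse. Acss2 fell by 0.54 ± 0.12 (SE) on the log2 scale (adjusted p = 0.00274 in limma), and its adjusted p was at most 0.00869 with any 1 mouse left out. Acss1 (chromosome 2, minus strand, 150618105 to 150668500), the mitochondrial acetate synthetase, was more abundant, with a smaller fold change. It ranged from 24.1 to 33.0 FPKM around a median of 25.9 in AIMD mice and from 26.8 to 43.0 around 34.5 in vehicle-treated mice. In each group 4 mice lay outside the range of the other, AIMD mice below and vehicle-treated mice above. Its log2 fold change of -0.32 ± 0.12 (SE) was close to the threshold, with an adjusted p of 0.0476 in limma. It was no longer called without any 1 of AIMD replicates 2 to 7 or vehicle replicates 1, 2, 3, 4 and 6 (adjusted p from 0.0613 to 0.0959), nor when all genes above 0 were tested (0.0592). Acss3, the mitochondrial propionate synthetase, had 1 recovered read, in an AIMD mouse.

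Long-chain synthetases had fold changes above 0 but no call, with a median log2 fold change of 0.25 over the 4 tested. Acsl3, a synthetase of the endoplasmic reticulum and lipid droplets, was the member with the highest mean in both groups. Its FPKM was 132 at the lowest, 192 at the median and 195 at the highest in AIMD mice, and 104, 151 and 176 in vehicle-treated mice. In 4 AIMD mice Acsl3 was above every vehicle-treated mouse, and the log2 fold change of 0.28 had a 95% interval from -0.02 to 0.58 (limma adjusted p = 0.14). Acsl1, known for supplying fatty acids to triglyceride synthesis and oxidation, had 3.29 ± 0.480 FPKM (SD, n = 7) against 2.48 ± 0.704 (SD, n = 8). Its log2 fold change was 0.37 (limma adjusted p = 0.0546), and it passed the threshold without AIMD replicate 3 (0.043), vehicle replicate 5 (0.014) or vehicle replicate 6 (0.0488). Acsl4, which prefers arachidonate and other polyunsaturated chains, had 3.49 ± 0.770 FPKM (SD, n = 7) and 2.99 ± 0.927 (SD, n = 8), with an interval of the log2 fold change from -0.16 to 0.61. Acsl5, the long-chain synthetase typical of intestinal epithelium, had 50.5 ± 8.53 FPKM (SD, n = 7) and 48.5 ± 11.2 (SD, n = 8), with an interval from -0.23 to 0.36.

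The remaining tested synthetases are mitochondrial, and none of Acsf2, Acsf3 and Acsm3 passed the threshold. Acsf3 makes malonyl-CoA for fatty acid synthesis inside mitochondria. It had 4.71 ± 1.78 FPKM (SD, n = 7) after antibiotics and 3.56 ± 2.02 (SD, n = 8) after water (log2 fold change 0.41, interval -0.16 to 0.98). Acsf2, a medium-chain synthetase, had 15.8 ± 1.69 FPKM (SD, n = 7) and 18.2 ± 6.41 (SD, n = 8), with a log2 fold change of -0.12. Of its 50-base windows 33.3% also occur in Gm5540 when either strand is counted, while the libraries were stranded. How far reads of Acsf2 and Gm5540 were mixed was not tested. Acsm3, a synthetase for butyrate and medium chains, was the single Acsm gene with reads, at 1.20 ± 0.514 FPKM (SD, n = 7) and 1.51 ± 1.42 (SD, n = 8). Acsm3 had a log2 fold change of -0.08 with an interval from -0.73 to 0.57. Of its windows 34.0% also occur in Eri2, again with either strand counted.

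The 7 other genes above 0 did not reach 0.5 FPKM in 7 mice and were not tested. The peroxisomal enzymes Acot3 and Acot5 reached at most 0.176 and 0.255 FPKM, with no more than 5 reads in a mouse. Acot10, a mitochondrial enzyme, reached 0.248 FPKM, and 43.2% of its windows occur elsewhere. Acot12, the cytosolic acetyl-CoA thioesterase known from liver, was above 0 in every mouse, at 0.219 to 0.601 FPKM after antibiotics and 0.207 to 0.694 after water. Acsl6 and Acsbg1, both typical of brain, reached 0.138 and 0.211 FPKM. The other medium-chain synthetases Acsm1, Acsm2, Acsm4 and Acsm5, as well as Acsbg2 and Acss2os, were at 0 in all 15 mice. With 154715518 reads in all mice together, a count of 0 allows up to 3 reads, or 0.00253 FPKM for Acsm2 and 0.0299 for the short Acss2os over all mice. Such limits cover counting error only.

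By compartment, and beside the 16.7% of all tested genes that were lower, 2 of 3 tested peroxisomal members were lower (Acot6 and Acot8, or 1 of 2 without Acot6, which the filter let through for its vehicle values), 2 of 4 in the cytosol (Acot1 and Acss2), 2 of 7 in mitochondria (Acot2 and Acss1) and 0 of 4 on membranes facing the cytosol, the Acsl genes. The median log2 fold change was -0.55 in the cytosol, -0.08 in mitochondria and 0.25 on these membranes. By reaction, 4 of 9 thioesterases, Acot6 among them, were lower, and 2 of 9 synthetases. These counts describe small lists, and no difference between compartments or reactions was tested.

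**Figure D2:**
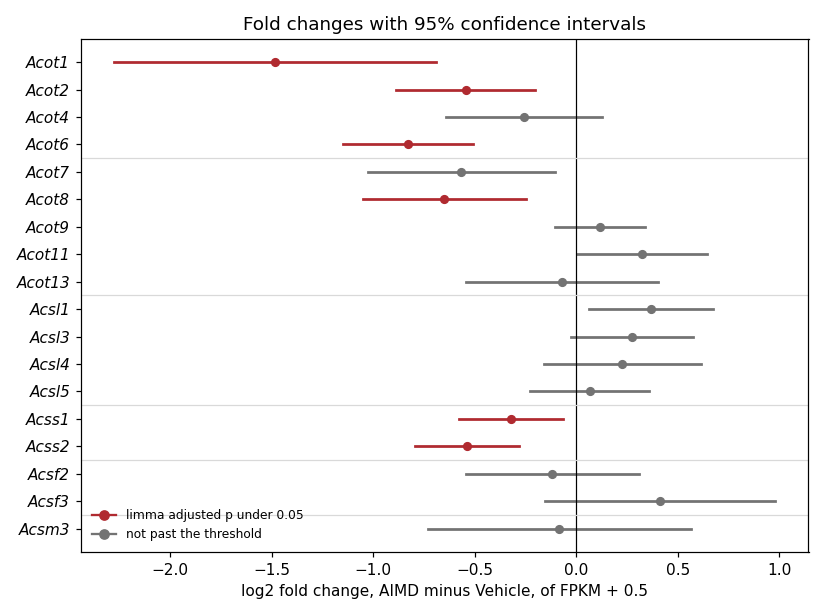
Log2 fold changes (AIMD minus vehicle, of FPKM + 0.5) of the 18 tested genes with 95% confidence intervals from limma, ordered by family, with red for an adjusted p under 0.05. The 6 red intervals lie below 0, and the 4 Acsl genes sit to the right of 0 in grey.

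Members also differed between mice of the same group along the core clock genes. An axis, the first principal component of 14 core clock genes centred within the groups, held 92.6% of their variance and separated the mice without overlap. At its low end were AIMD replicates 1 to 3 (-3.21 to -2.41) and vehicle replicates 1 to 4 (-3.43 to -2.9), and at its high end the other 4 AIMD (1.81 to 2.35) and 4 vehicle-treated mice (2.38 to 4.22). The labels give no time of sacrifice. With treatment in the limma fit, 8 of the 18 members varied along the axis (adjusted p under 0.05), where 22.2% of all tested genes did. Higher at the low end were Acot1 (slope -0.22 per unit of the axis, adjusted p = 0.00205), Acsf3 (-0.14, 0.00766), Acot13 (-0.12, 0.00492), Acot7 (-0.11, 0.00971), Acot8 (-0.09, 0.0151) and Acss1 (-0.05, 0.0376). Higher at the high end were Acot4 (slope 0.08, adjusted p = 0.0231) and Acsl3 (0.06, 0.0359).

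Acot1 showed this most clearly. Vehicle-treated mice at the low end had 11.5 to 24.1 FPKM of Acot1, and those at the high end 3.96 to 5.11. AIMD mice had 2.28 to 5.47 at the low end and 0.976 to 3.08 at the high end. Within the low cluster the log2 fold change of Acot1 was -1.87 ± 0.29 (SE, adjusted p = 0.00321 in limma), and within the high cluster -0.98 ± 0.25 (SE, adjusted p = 0.0223). The test of the difference between the clusters gave 0.90 ± 0.42 (SE, adjusted p = 0.993 in limma), so the antibiotic effect on Acot1 was not shown to depend on the cluster.

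With fewer mice, 4 members were lower in the low cluster (Acot1, Acot2, Acot7 and Acss2), where 7.08% of all tested genes were, and 2 in the high cluster (Acot1 and Acot6), where 9.49% were. Acot7 had 65.3 to 71.8 FPKM in AIMD mice and 87.9 to 165 in vehicle-treated mice at the low end (log2 fold change -0.79, limma adjusted p = 0.0379), and at the high end 43.5 to 67.9 and 55.5 to 92.5 (-0.29, adjusted p = 0.344). For Acot2 the within-cluster values were -0.85 (adjusted p = 0.0127) and -0.26 (0.419), for Acss1 -0.46 (0.0732) and -0.16 (0.42), and for Acss2 -0.57 (0.0282) and -0.48 (0.0733). Acot8 had close values in both, -0.62 (adjusted p = 0.0791) and -0.60 (0.0529), and Acot6 had -0.59 (0.0542) and -1.05 (0.0109). The direction of all 6 called genes was the same in both clusters. These genes were called over the same mice, so this is not separate support. The lowest limma adjusted p for a difference between clusters was 0.993 among members and 0.717 among all tested genes. The within-cluster comparisons were chosen after the data were seen.

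**Figure D3:**
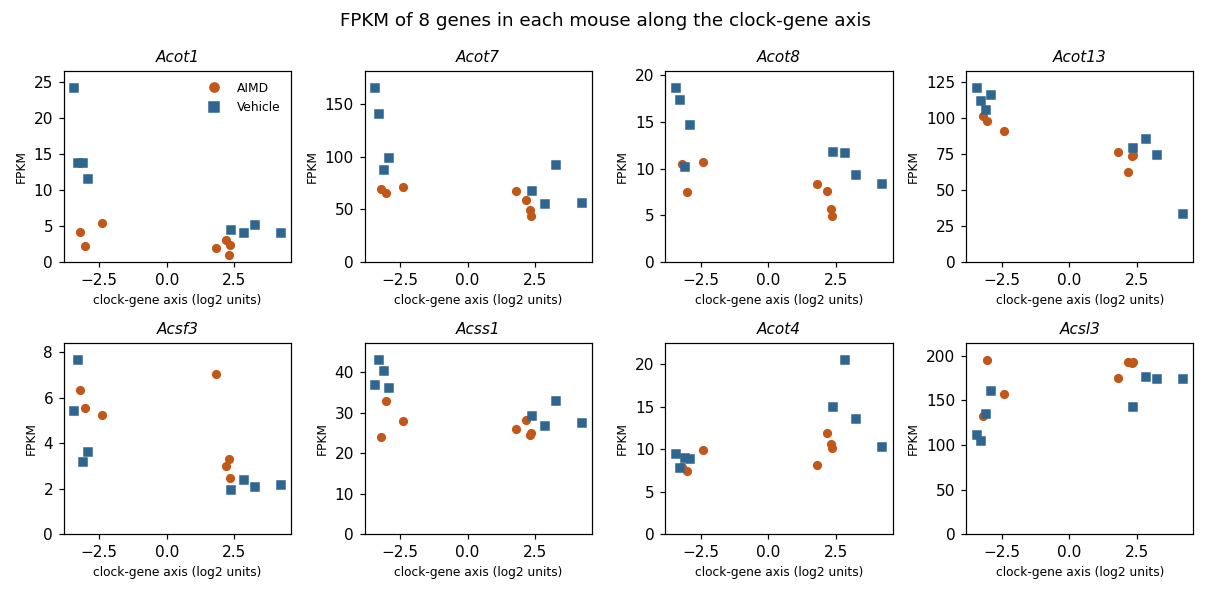
FPKM of the 8 members that varied along the clock-gene axis (x axis, log2 units), with 1 point per mouse, circles for 7 AIMD and squares for 8 vehicle-treated mice. The mice form a low and a high cluster, and for Acot1 the vehicle-treated mice of the low cluster (11.5 to 24.1 FPKM) stand above all other mice.

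Other genes that make, bind, move or split acyl-CoA were read from 5 lists of 43 genes, of which 33 were tested, 9 were lower and 4 higher in AIMD mice, where 16.7% of all tested genes were lower and 19.4% higher. Among other synthetases, 2 of 4 were lower, both fatty acid transport proteins of the Slc27 family. Slc27a4, the main one of intestinal epithelium, had 42.8 ± 5.55 FPKM (SD, n = 7) against 90.4 ± 21 (SD, n = 8), without overlap (log2 fold change -1.05, limma adjusted p = 6.005e-05). Slc27a1 was lower by a log2 fold change of -0.71, also without overlap, as was the case for 8.56% of all tested genes. Aacs, which activates acetoacetate, had a log2 fold change of 0.01. Of 8 other thioesterases and CoA-splitting hydrolases, the lysosomal Ppt2 was lower (-0.58), and its relative Ppt1 (0.42) and the peroxisomal Nudt19 (0.41) were higher, Nudt19 without overlap.

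In the carnitine shuttle, which carries long chains into mitochondria, 2 of 5 genes were lower, where 16.7% of all tested genes were. Cpt1a, which loads carnitine outside the inner membrane, had 44.5 ± 7.72 FPKM (SD, n = 7) against 61.1 ± 12.3 (SD, n = 8), and Cpt2, which unloads it inside, 46.7 ± 7.34 (SD, n = 7) against 81.1 ± 8.49 (SD, n = 8). Their log2 fold changes were -0.45 (limma adjusted p = 0.0241) and -0.80 (adjusted p = 6.821e-05). The groups did not overlap for Cpt2, as for 8.56% of all tested genes. The carrier Slc25a20, at 122 and 105 FPKM, did not pass the threshold. Of 10 genes of coenzyme A synthesis and transport 3 were lower. These were the pantothenate kinases Pank1 (-0.47) and Pank3 (-0.58) and Coasy, which carries out the last steps, with 10.2 ± 2.55 FPKM (SD, n = 7) against 21 ± 4.79 (SD, n = 8) and no overlap (log2 fold change -1.01, limma adjusted p = 0.000185). Their relative Pank4 was higher (0.42).

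Of 6 acyl-CoA binding genes, Acbd6 was lower without overlap (log2 fold change -0.80, limma adjusted p = 0.000251) and the Golgi protein Acbd3 higher (0.41). Among all tested genes, 16.7% were lower, 19.4% were higher and 8.56% had groups without overlap. Dbi, the abundant acyl-CoA binding protein, had 507 ± 151 FPKM (SD, n = 7) against 712 ± 209 (SD, n = 8) and did not pass the threshold (adjusted p = 0.0865). The count of 4 higher genes fell to 2 without AIMD replicate 1, 2, 5, 6 or 7 or vehicle replicate 3 or 7, while that of lower genes was 8 to 10 with any 1 mouse left out.

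**Figure D4:**
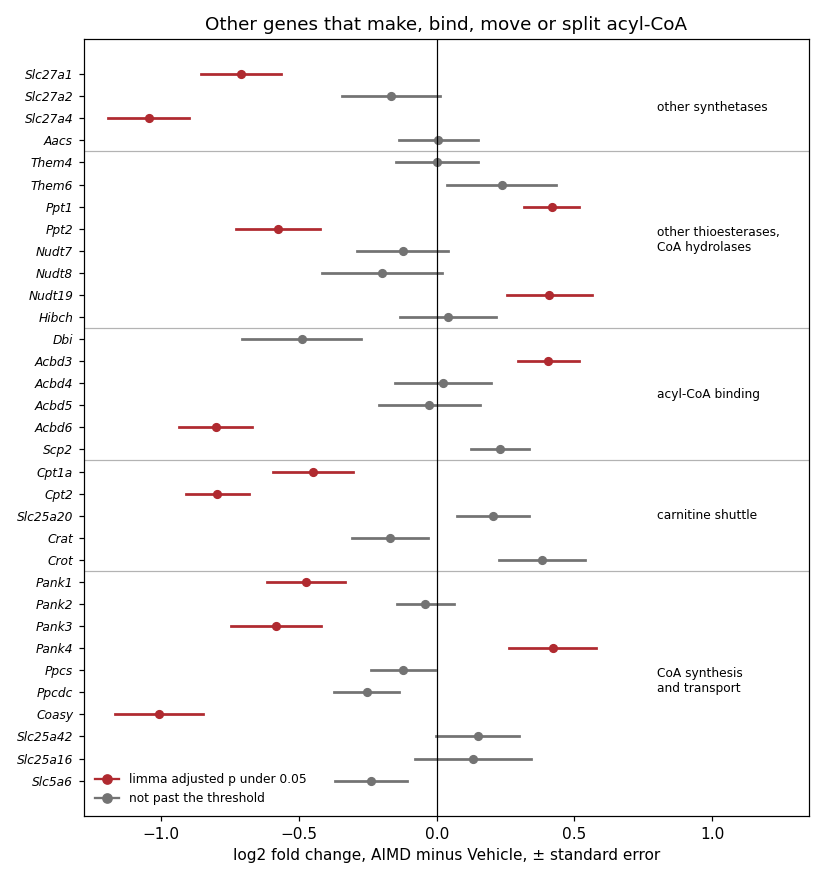
Log2 fold changes (AIMD minus vehicle) ± standard error of the 33 tested genes of the 5 lists, with red for a limma adjusted p under 0.05. In each list at least 1 gene is lower, led by Slc27a4 at -1.05 and Coasy at -1.01.

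The 5 tested genes outside the family whose values followed Acot1 most closely over the 15 mice, after centring within the groups, were H2afx (Pearson r 0.943), Sike1 (0.932), Trub1 (0.923), Psmg1 (0.916) and Grcc10 (0.911). The mice share the clock clusters in this comparison, and of these genes H2afx was also lower in AIMD mice (log2 fold change -0.74, limma adjusted p = 0.012). Promoter windows from RefSeq (GRCm38.p6, 250 bases before to 50 after the start) were found for 27 of the 31 members. The windows of Acot1 and Acot2, both lower in AIMD mice, are shown up to 30 bases after the start, which capitals mark.
Acot1 chr12:84009252-84009531 (plus strand): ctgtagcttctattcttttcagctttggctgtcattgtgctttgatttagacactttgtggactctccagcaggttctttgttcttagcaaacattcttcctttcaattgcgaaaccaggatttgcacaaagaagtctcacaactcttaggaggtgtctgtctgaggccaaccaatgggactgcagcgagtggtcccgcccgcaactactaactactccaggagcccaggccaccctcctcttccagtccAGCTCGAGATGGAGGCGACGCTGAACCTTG
Acot2 chr12:83987611-83987890 (plus strand): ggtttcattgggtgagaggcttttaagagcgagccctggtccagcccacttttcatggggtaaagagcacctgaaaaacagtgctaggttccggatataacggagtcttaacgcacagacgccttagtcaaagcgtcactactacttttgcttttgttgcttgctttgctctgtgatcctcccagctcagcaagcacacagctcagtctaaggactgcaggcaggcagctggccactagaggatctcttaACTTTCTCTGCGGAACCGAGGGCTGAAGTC
On both strands, CACGTG, the E-box that clock proteins bind, stood in the windows of Acot4, Acot11 and Acsm5 and in 7.15% of all 32851 windows. AGGTCA, the core of nuclear receptor sites, stood in those of Acot3, Acot4, Acot5, Acot12, Acsl6 and Acsm1 and in 16.3% of all. TTATGTAA, the D-box of the clock output factors, stood in that of Acsm3 and in 0.938% of all. None of the 5 called members with a window, Acot6 having none here, held any of these letters there.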

How the data were processed

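Cecal poly-A RNA of 7 AIMD and 8 vehicle-treated mice was sequenced by the authors with stranded libraries and 50-base reads, mapped to GRCm38 with STAR and counted with featureCounts. FPKM per gene and mouse were deposited by the authors, and how counts became FPKM is not given in the sources used here. The authors' DESeq2 model also held time of sacrifice, which the labels do not give.

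The steps of the FPKM values gave whole reads (tolerance 0.001) for all but 1 of 24279 genes, from which depth was taken. For 16231 genes this held at the annotated length. For 8047 genes the shortest length that made every value whole was taken, which gives the fewest reads and is uncertain for genes with few reads. Size factors were 1.01 in every mouse, so the deposited values were already scaled. After leaving out 4 rows with repeated symbols, genes reaching an FPKM of 0.5 in 7 or more mice were compared as log2(FPKM + 0.5) with limma 3.58.1 (lmFit, eBayes with trend, R 4.3.3), two-sided, with Benjamini-Hochberg adjustment over all 11983 genes and a threshold of 0.05. Single members were also compared by exact permutation over all splits into 7 and 8 mice, whose smallest p is 0.000155. The methods were tested on simulated data.

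Members and gene lists were chosen with earlier results of these data known. Every member above 0 is named. Of the lists, called genes and at most 4 others each are named. Positions, lengths and 50-base windows came from GENCODE M21, promoters from RefSeq. Windows shared with other genes were counted on either strand, and those of the Acot1 and Acot2 coding sequences on the same strand. The length behind the FPKM, as recovered, was clearly shorter than in M21 for Acot1, Acot3, Acot4, Acot6, Acsl1, Acsl5, Acsf3 and Acss3. This bears on their levels against other genes and not on fold changes. For Acss3, above 0 in 1 mouse, length and read count rest on the choice of the shortest length. Python 3.11.15, numpy 2.4.6, pandas 2.3.3, Biopython 1.88 and matplotlib 3.10.9 were used.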

Additional observations from a re-analysis of the deposited data

Results flagged for a closer look

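Among 36 groups of values (18 members in 2 treatment groups), 3 held a mouse far above the others of its group, where chance flags about 1 in 20 groups. Vehicle replicate 8 had 2.02 FPKM of Acot6, and the next highest vehicle-treated mouse had 0.992. The same mouse had 75.5 FPKM of Acsl5, against 49.6 in the next. It was also the least deep library and the one with the highest summed neuron, glia and smooth muscle markers, whose part in these values was not tested. Vehicle replicate 5 had 4.79 FPKM of Acsm3, and the next highest vehicle-treated mouse had 2.10.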

How the results depend on the processing

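The counts of lower members were 5 to 7 under the other pseudocounts, scalings, filters and tests and with each mouse left out. Acot1, Acot2, Acot8 and Acss2 were lower in all of these, Acot6 was removed by a filter at 1 FPKM, and Acss1 was lost without a filter and without most single mice. Acot7 was lower as well with quantile normalization, limma voom and the clock-gene covariate. Within the high cluster 2 members were lower. The count of higher members was 1 in limma voom (Acsl1), 1 with the clock-gene axis as a covariate (Acsl1) and 0 to 1 with each mouse left out. The replicate numbers were not taken to pair the mice, since 2 of 7 same-numbered pairs deviated together with a correlation over 0.1 (range -0.35 to 0.43) and 1 of 7 AIMD mice correlated best with its own number. With these numbers as a block, 7 members were lower (Acot7 in addition), 2 were higher (Acot11 and Acsl1) and 2 list genes were higher. Genes of the lists called higher numbered 2 without a filter, 2 to 4 with each mouse left out, and 0 within the low and 0 within the high cluster (limma, 4 with all mice). Of all tested genes, 848 were lower and 1034 higher within the low cluster, and 1137 lower and 1344 higher within the high cluster, where fewer mice were compared. Some members without a call changed sign. Acot13 was 0.0173 with quantile normalization, -0.26 to 0.0037 with each mouse left out and 0.15 within the high cluster. Acsf2 was 0.16 within the high cluster, and Acsm3 was -0.21 to 0.15 with each mouse left out and 0.18 within the low cluster. The cause was not tested. Depth limits Acot6, with as few as 7 reads in a mouse, and the untested low genes.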
